A study of Mus musculus with 4 samples.

Results

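The receptors Glp1r, Gipr, Gcgr, Ffar1, Gpr119, Casr, Ghsr, Sstr3, Adra2a and Chrm3 carry signals of hormones, nutrients and nerves into islet cells. They were chosen by gene symbol and not by a filter on their values, but with earlier results of these data known. They are 10 of the 32227 genes listed in the count matrices. Together they held 39475 of 54447218 unique molecular identifiers (UMIs, which mark single captured RNA molecules), or 0.0725%, and each of the 10 had at least 1 UMI.

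Single islet cells from Myt3IM/IM and wild-type mice were sequenced in droplets, to find genes whose expression in β cells differs when translation of Myt3 (listed as St18, a zinc finger transcription factor of islet cells) is altered. Myt3IM/IM mice are homozygous for a CRISPR-Cas9 insertion of 12 bases, in every cell of the animal. Per the study, it ends a short upstream open reading frame before that frame overlaps the main one in 1 Myt3 transcript. It also adds amino acids to the protein made from another transcript. The controls are wild-type homozygotes bred from the same outcrossed founder. All animals were adults. GEO's labels give a normal diet and PIPseq, whereas the methods of the study give a high-fat diet and inDrop-Seq with islets of male and female mice pooled in each library, and this was not settled here. The 3 libraries analysed are mutant 1, mutant 2 and control 2, named as labelled. Control 1 was not analysed here. The insertion itself cannot be seen in gene counts, so that the genotype labels were not checked.

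The 10 receptors belong to the G protein-coupled family. Those for GLP-1 (Glp1r), GIP (Gipr) and glucagon (Gcgr) couple to the stimulatory G protein, raise cAMP and amplify insulin secretion when glucose is high. Ffar1 for long-chain fatty acids and Chrm3 for acetylcholine from vagal nerves act through Gq and calcium, whereas Sstr3 for somatostatin and Adra2a for noradrenaline act through inhibitory G proteins and restrain secretion.

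Mutant 1, mutant 2 and control 2, in the order kept below, held 3023, 2045 and 2308 barcodes, of which 2940, 2040 and 2283 passed the filters of the study. They shared no barcode. Depth differed: the median numbers of UMIs per cell were 2427, 3851.5 and 14051. Cells were assigned by the share of their UMIs from hormone genes, with at least 15% from Ins1 and Ins2 for β cells, 3% from Gcg for α cells, 1% from Sst for δ cells and 3% from Ppy for PP cells. Cells over 2 minimums (97, 66 and 47) were left out as mixed. This gave 2254, 1536 and 2025 β cells, 288, 215 and 33 α cells, 103, 85 and 28 δ cells and 50, 34 and 17 PP cells, and 61, 53 and 71 cells with markers of endothelium, stroma, leukocytes or ducts were called non-endocrine. The names rest on the hormones. Markers other than hormones went with them: the summed share of 6 β markers (Mafa, Nkx6-1, Slc2a2, G6pc2, Ucn3 and Pdx1) was 0.163% to 0.392% of UMIs in β cells and 0.0245% to 0.0609% in α cells, and that of 7 α markers was 0.983% to 1.28% in α cells and 0.0704% to 0.199% in β cells. The sum of 4 δ markers was 0.149% to 0.173% in δ cells and 0.0586% to 0.0750% in α cells. PP cells stood less apart: the sum of 5 PP markers was 3.78%, 4.88% and 7.64% in PP cells, 1.33%, 1.44% and 3.57% in δ cells and 0.960%, 1.003% and 3.27% in α cells, so that δ cells of control 2 came near PP cells of mutant 1.

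RNA of β cells was also found in the other cells. Insulin made up 3.71%, 3.52% and 3.79% of the UMIs of the median α cell, a hormone that α cells do not make. The β genes Slc2a2, Mafa, Nkx6-1 and G6pc2 stood in α cells at 5.76% to 14.1% of their level in β cells of the same library. A receptor at about this percentage in α cells was therefore not distinguishable from free RNA of β cells.

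**Figure D1:**
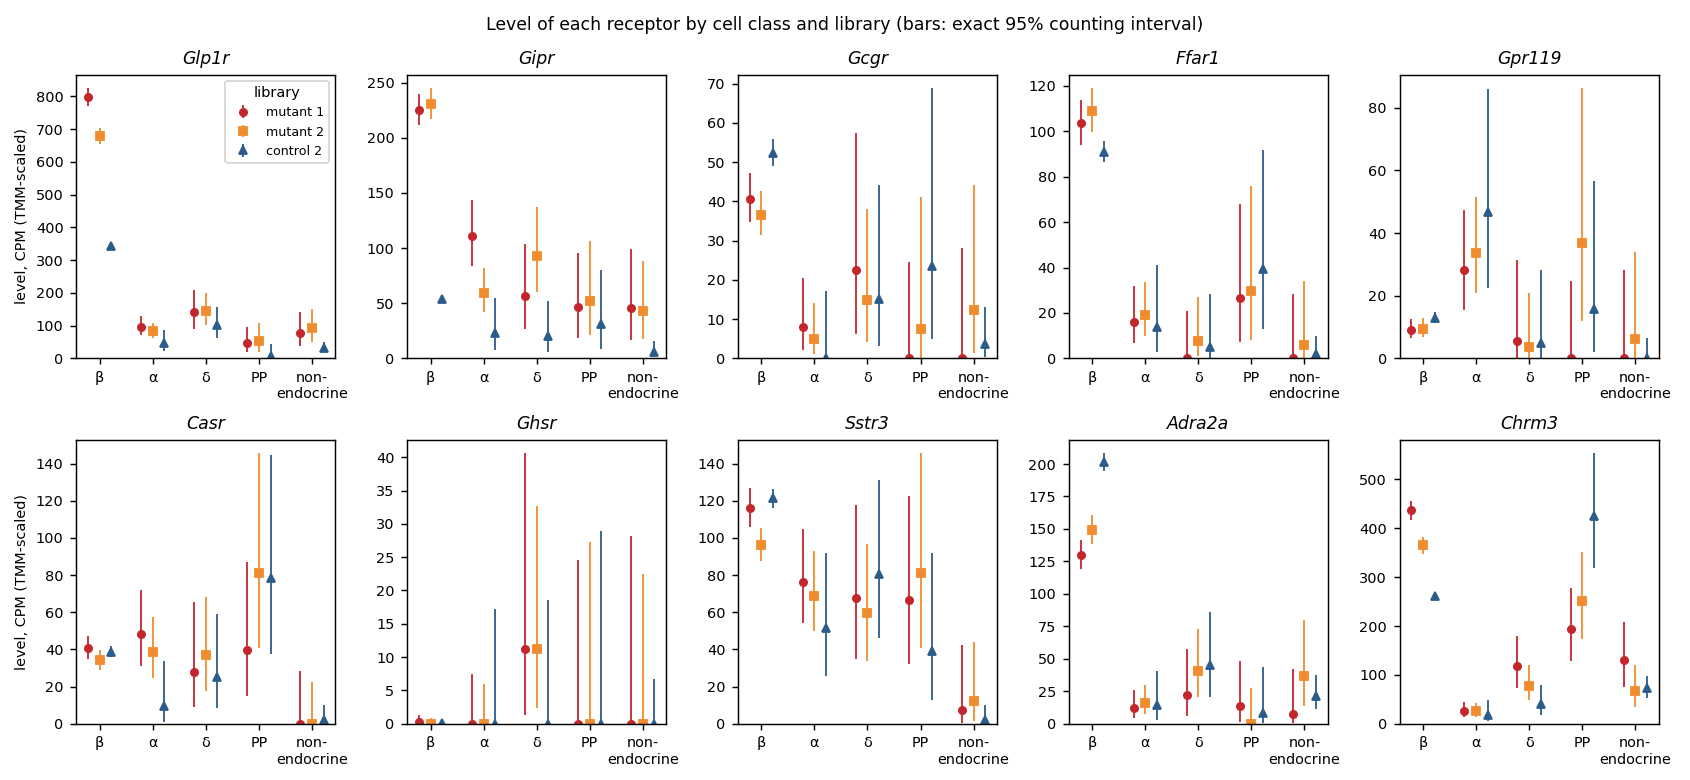
The level of each receptor (CPM, UMIs scaled to a common total, with TMM scaling over all 15 sums of a class in a library, on a linear axis from 0) in β, α, δ, PP and non-endocrine cells of mutant 1 (circles), mutant 2 (squares) and control 2 (triangles), with exact 95% intervals for counting error. Glp1r, Gipr, Ffar1 and Adra2a were highest in β cells in all 3 libraries, whereas Gpr119 was higher in α than in β cells, with 28.2, 33.7 and 46.7 CPM against 9.20, 9.48 and 12.9 CPM.

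The first question was which endocrine cell type holds each receptor. UMIs were summed per library and class, and β, α and δ cells were compared over the 9 sums with the library as a block (edgeR's quasi-likelihood test). Differences are log2 values with approximate standard errors. Each is the size of the difference divided by the square root of the F value of its test. Of the 10 receptors, 9 reached the minimum of 10 UMIs over the 9 sums, and Ghsr did not. Between β and α cells, 7 of these 9 were higher in β cells and 1 was higher in α cells, where 10.3% and 6% of all 18228 genes tested were called in these directions. None was higher in δ than in β cells and 6 were lower, against 3.54% and 7.84% of all genes. Between δ and α cells, 2 were higher and 1 was lower in δ cells, against 2.46% and 3.19%. Over both directions 16.3%, 11.4% and 5.66% of all genes were called in these 3 comparisons. The median log2 difference of the 9 receptors was 2.58 between β and α cells and -1.51 between δ and β cells, and that of all genes was 0.26 and -0.41. The scaling sets where 0 lies. Without a scaling factor the median of all genes moved to -0.45 and 0.76, and the share of called genes that were higher in β than in α cells went from 63.1% to 12.8%.

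**Figure D2:**
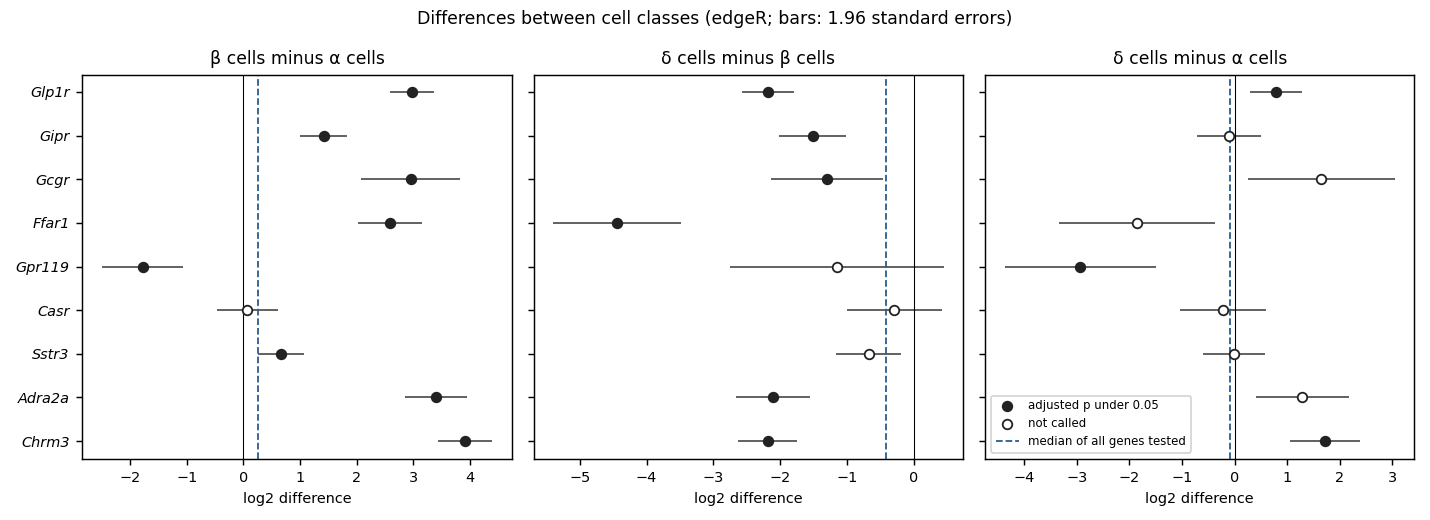
The log2 difference of the 9 receptors tested (points, with bars of 95% intervals from the standard errors) between β and α, δ and β, and δ and α cells, from the edgeR fit over 9 sums. Filled points passed an adjusted p of 0.05, and the dashed line is the median of all genes tested, at 0.26, -0.41 and -0.09.

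Glp1r, the receptor of the incretin GLP-1, was a β-cell gene in all 3 libraries. It stood at 798, 679 and 342 CPM in the β cells of mutant 1, mutant 2 and control 2, from 3380, 3151 and 6071 UMIs. In α cells it had 48, 52 and 10 UMIs, or 96.6, 83.5 and 46.7 CPM. In each library β cells were the higher, and the difference was 2.97 ± 0.20 (SE) on the log2 scale (adjusted p = 7.05e-49, edgeR). That difference was called in all 12 alternative settings, in which it ran from 2.27 to 3.22. What remained in α cells was 12.1%, 12.3% and 13.7% of the β level. That is within the 5.76% to 14.1% of the reference genes over the 3 libraries, although in mutant 2 and control 2 it was above all 4 of them. In δ cells Glp1r stood at 140, 145 and 101 CPM, which is 17.6%, 21.4% and 29.6% of the β level and above the 4.26% to 13.1% of the same reference genes in δ cells. In non-endocrine cells it was at 9.55%, 13.5% and 9.52%, below the δ value of each library but in mutant 2 above all 4 reference genes there. The part of free RNA in the δ level was not tested. Glp1r was 0.79 ± 0.25 higher in δ than in α cells (adjusted p = 0.0334, edgeR), a call kept in 4 of 12 alternatives and lost without any 1 of the libraries. PP cells held 7, 7 and 1 UMIs.

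Glp1r is a plus-strand gene of chromosome 17 (30901817 to 30940791, GRCm38), and 2 genes are annotated on the opposite strand within it. Whether strand was used in counting is not given in the sources used here, so reads of these genes cannot be told apart. The letters before its start are shown because its level was compared with that of Gpr119, which had the opposite order of β and α cells. They are from RefSeq (GRCm38.p6, a build older than the GRCm39 named in the submitters' processing notes, matched by symbol), at chr17:30901617-30901816 on the plus strand, ahead of both the RefSeq and the GENCODE start.
Glp1r: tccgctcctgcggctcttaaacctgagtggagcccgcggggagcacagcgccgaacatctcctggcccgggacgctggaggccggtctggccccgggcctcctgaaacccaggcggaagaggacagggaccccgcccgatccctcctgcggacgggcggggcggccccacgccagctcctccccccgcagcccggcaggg
Of these 200 bases 75% were G or C. None of 3 motifs was found in them on either strand: TAAT, the core of many homeodomain sites, which 47.0% of 32851 RefSeq promoter windows of that length hold, TGCTGA, part of a Maf site, held by 13.2%, and CANNTG, the E-box, held by 58.2%. The windows counted for these shares end at the RefSeq start, 50 bases beyond the stretch printed, and in that window Glp1r had 1 match to CANNTG. No match says only that the letters are not in the stretch searched.

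Gipr, the receptor of the other incretin, was also highest in β cells, with 225, 231 and 54.0 CPM from 954, 1071 and 960 UMIs. Its level in α cells was 111, 59.4 and 23.4 CPM, which is 49.1%, 25.7% and 43.2% of the β level of the same library and above all 4 reference genes. In non-endocrine cells Gipr stood at 20.3%, 18.5% and 10.03% of the β level, from 6, 7 and 3 UMIs. In both mutant libraries this was above the reference genes in those cells (4.22% to 9.63%), but not in control 2. Among α and δ cells, α cells of mutant 2 and δ cells of mutant 1 (24.9%) came nearest to it. The part of free RNA in these levels was not tested. Within each library β cells were higher than α cells. On this scale, which does not serve for comparing libraries, the β level of control 2 lay below the α level of both mutant libraries. The log2 difference was 1.41 ± 0.21 (adjusted p = 1.60e-09, edgeR), and it was called in 11 of 12 alternatives. The exception was the fit without the library block (adjusted p = 0.158). In δ cells Gipr stood at 56.2, 93.0 and 20.2 CPM, and the difference of δ from β cells was -1.51 ± 0.26 (adjusted p = 1.66e-07, edgeR). That call was lost without a scaling factor (adjusted p = 0.393) and without the library block (adjusted p = 0.137). Between δ and α cells the difference was -0.10 ± 0.31 (adjusted p = 0.998). Gipr is on the minus strand of chromosome 7 (19156061 to 19166127, GRCm38).

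Gcgr, the receptor of glucagon, was a gene of β cells rather than of the α cells that secrete its ligand. It stood at 40.6, 36.6 and 52.3 CPM in β cells, from 172, 170 and 930 UMIs. In α cells 4, 3 and 0 UMIs were counted, and the level was 2.95 ± 0.45 higher in β cells (adjusted p = 1.29e-09, edgeR; called in 12 of 12 alternatives). At the depth of α cells in control 2, 3 counts correspond to 14.01 CPM. δ cells held 4, 4 and 3 UMIs, or 22.5, 14.9 and 15.2 CPM, and differed from β cells by -1.30 ± 0.43 (adjusted p = 0.0241). That call was lost in 8 of 12 alternatives, among them leaving out any 1 of the libraries. An annotated gene lies on the opposite strand within Gcgr (chromosome 11, 120530699 to 120538986, GRCm38).

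**Figure D3:**
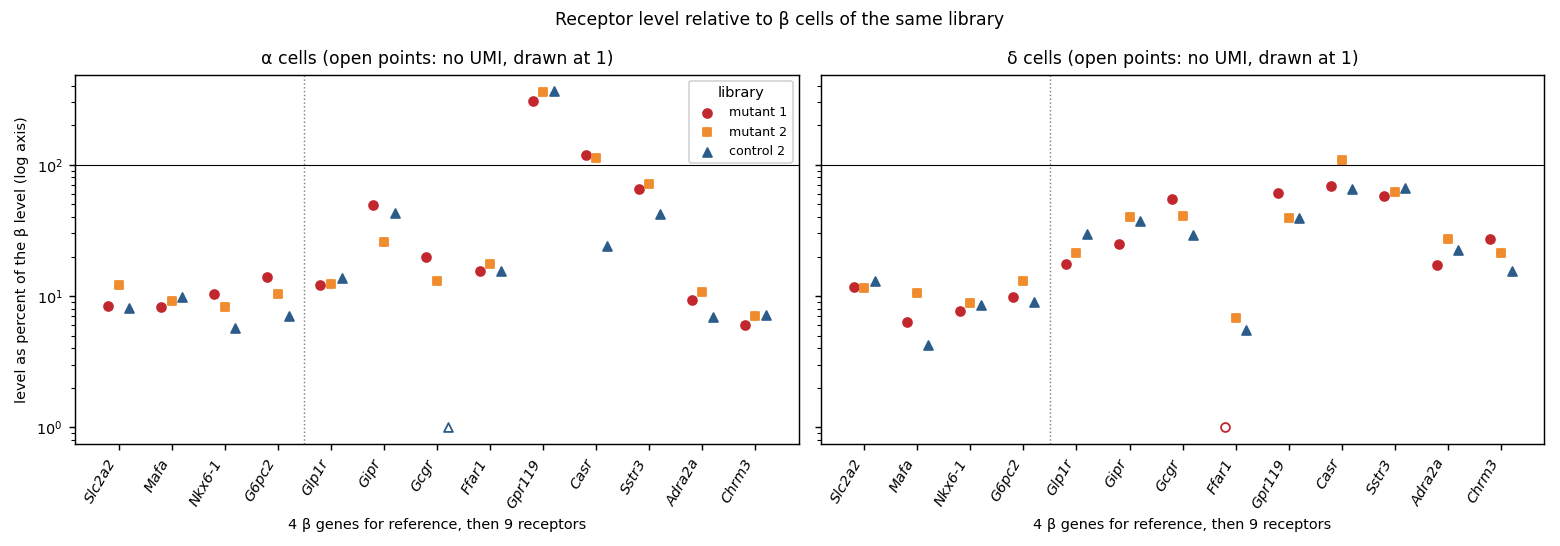
The level in α cells (left) and δ cells (right) as a percentage of the level in β cells of the same library, on a log axis, for 4 β genes that serve as a reference for free RNA (left of the dotted line) and for 9 receptors. In α cells Glp1r, Adra2a and Chrm3, at 5.99% to 13.7%, lay within the range of the reference genes over the 3 libraries, while Gipr, Ffar1, Casr, Sstr3 and Gpr119 lay above all 4 in each library. Counting error is not drawn. Ffar1 in α cells rests on 8, 12 and 3 UMIs, and Casr in α cells of control 2 on 2.

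Among the nutrient receptors, Ffar1 and Gpr119 had opposite orders. Ffar1, the receptor of long-chain fatty acids, stood at 103, 109 and 91.1 CPM in β cells from 438, 506 and 1618 UMIs, against 16.1, 19.3 and 14.01 CPM in α cells. In each library the β value was above the α value, with a log2 difference of 2.58 ± 0.29 (adjusted p = 2.30e-17, edgeR, called in 12 of 12 alternatives). The level in α cells, from 8, 12 and 3 UMIs, was 15.6%, 17.7% and 15.4% of the β level. These values were above all 4 reference genes of each library, but in mutant 1 G6pc2 was close, at 14.1%. The distance from the reference genes was not set against counting error, and the part of free RNA was not tested. δ cells had 0, 2 and 1 UMIs of Ffar1, and the difference from β cells was -4.44 ± 0.49 (adjusted p = 2.08e-17). With 0 UMIs, up to 16.9 CPM is possible in the δ cells of mutant 1. In PP cells, 4, 4 and 5 UMIs gave 26.6, 29.6 and 39.3 CPM.

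Gpr119, which binds lipid amides such as oleoylethanolamide and couples to the stimulatory G protein, was the only 1 of the 9 that was called higher in α than in β cells. It had 14, 21 and 10 UMIs in α cells, or 28.2, 33.7 and 46.7 CPM, and 39, 44 and 229 UMIs in β cells, or 9.20, 9.48 and 12.9 CPM. The α value was above the β value in each library. The log2 difference of β and α cells was -1.78 ± 0.37 (adjusted p = 2.27e-05, edgeR) and was called in 12 of 12 alternatives, in which it ran from -2.52 to -1.67. δ cells held 1 UMI in each library and differed from α cells by -2.93 ± 0.74 (adjusted p = 0.00231, edgeR). That call was lost with each cell thinned to 1000 UMIs and with mutant 2 left out. PP cells held 0, 5 and 2 UMIs, with 4 of the 5 in 1 cell. In the fit over 12 sums described below, PP and α cells differed by -1.06 ± 0.64, which was not called (adjusted p = 0.694, edgeR). With cells thinned to 1000 UMIs, 4.12% of α cells in mutant 1 (95% exact interval 1.99 to 7.44), 1.94% in mutant 2 (0.532 to 4.90) and 6.06% in control 2 (0.743 to 20.2) had a Gpr119 UMI, as against 0.419%, 0.865% and 0.691% of β cells.

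The bases before the start of Gpr119, a single gene on the minus strand of chromosome X (48667979 to 48674478, GRCm38) with no annotated gene overlapping it, are given for comparison with those of Glp1r. They lie at chrX:48674479-48674678 and are printed 5′ to 3′ on the minus strand, with the 1 match to TAAT (read here on the other strand) in capitals.
Gpr119: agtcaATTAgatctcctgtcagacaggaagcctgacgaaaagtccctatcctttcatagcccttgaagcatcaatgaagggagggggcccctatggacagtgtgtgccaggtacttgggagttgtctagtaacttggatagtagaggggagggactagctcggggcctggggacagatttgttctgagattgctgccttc
In this window 51.5% of bases were G or C, and neither TGCTGA nor CANNTG was found. A match of this length is a description of letters and not a site. Of the 10 receptors, 9 were in the promoter table.

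Casr, the calcium-sensing receptor, was detected in all endocrine classes, and no difference between them was called. β cells had 40.8, 34.1 and 38.6 CPM and δ cells 28.1, 37.2 and 25.3 CPM. α cells had 48.3 and 38.5 CPM in mutant 1 and mutant 2, from 24 UMIs each, and 9.34 CPM in control 2, from 2 UMIs. The log2 difference between β and α cells was 0.07 ± 0.28 (adjusted p = 0.916, edgeR), and none of the 12 alternatives called it, with values from -0.62 to 0.37. Non-endocrine cells held 0, 0 and 1 UMI. PP cells had 39.9, 81.4 and 78.6 CPM from 6, 11 and 10 UMIs. The difference of Casr between PP and β cells was 0.78 ± 0.35 (adjusted p = 0.177, edgeR) and was called in 2 of 5 alternatives.

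Ghsr, the receptor of ghrelin, had 8 UMIs over the 5 classes. δ cells of mutant 1 and mutant 2 held 2 and 3 of them, each in a different cell, and δ cells of control 2 held 0 of 28 cells, where 3 counts correspond to 15.2 CPM. In β cells there were 1, 0 and 2 UMIs in 2254, 1536 and 2025 cells, or 0.236, 0 and 0.113 CPM. No UMI was seen in α, PP or non-endocrine cells. The level in δ cells was 11.2 CPM in both mutant libraries, with counting intervals of 1.36 to 40.6 and 2.30 to 32.6. With too few UMIs for the filter, Ghsr was tested only in the alternative with no filter, where δ and β cells differed (adjusted p = 0.0182, edgeR).

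The inhibitory receptors divided. Adra2a, the receptor through which noradrenaline lowers insulin secretion, stood at 130, 149 and 202 CPM in β cells (550, 693 and 3581 UMIs) and at 12.1, 16.0 and 14.01 CPM in α cells (6, 10 and 3 UMIs). The 2 classes were far apart, with a log2 difference of 3.40 ± 0.28 (adjusted p = 6.98e-31, edgeR), called in 12 of 12 alternatives. In δ cells Adra2a had 22.5, 40.9 and 45.5 CPM, or 17.3% to 27.4% of the β level. Non-endocrine cells had 5.87%, 24.5% and 10.8% of the β level, from 1, 6 and 12 UMIs. δ cells differed from β cells by -2.10 ± 0.28 (adjusted p = 6.28e-12). The difference between δ and α cells, 1.29 ± 0.45, missed the threshold (adjusted p = 0.0687) and passed it in 3 of 12 alternatives.

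Sstr3, a receptor for the somatostatin of δ cells, was found in all endocrine classes. Its level was 116, 96.1 and 121 CPM in β cells, 76.4, 69.0 and 51.4 CPM in α cells, 67.4, 59.5 and 80.8 CPM in δ cells and 66.5, 81.4 and 39.3 CPM in PP cells. Non-endocrine cells held 1, 2 and 1 UMIs, or 7.62, 12.2 and 1.81 CPM. With the TMM scaling of these levels β cells were the highest class in every library, yet the difference from α cells was small. It was 0.66 ± 0.21 (adjusted p = 0.0129, edgeR), was called in 3 of 12 alternatives and was -0.05 without a scaling factor. The difference between δ and β cells, -0.67 ± 0.25, was not called (adjusted p = 0.0584).

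Chrm3, the muscarinic receptor of vagal input, was high in β and PP cells and low in α cells. β cells had 437, 365 and 261 CPM from 1849, 1693 and 4630 UMIs, and α cells had 26.2, 25.7 and 18.7 CPM from 13, 16 and 4 UMIs. The log2 difference of β and α cells was 3.92 ± 0.24 (adjusted p = 5.16e-56, edgeR; called in 12 of 12 alternatives), and what was left in α cells, 5.99% to 7.17% of the β level, was within the range of the reference genes. δ cells stood between them at 118, 78.1 and 40.4 CPM, 1.73 ± 0.34 above α cells (adjusted p = 1.94e-05). That call was lost with cells thinned to 1000 UMIs and without mutant 1. Non-endocrine cells were at 130, 67.1 and 72.3 CPM, as high as δ cells, from 17, 11 and 40 UMIs. The gene spans 9875486 to 10360847 on the minus strand of chromosome 13 (GRCm38), and 6 further annotated genes lie within it, 4 of them on the same strand, so their reads could not be separated from those of Chrm3.

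PP cells were compared in a fit over 12 sums that was added after the levels had been seen. Chrm3 was 3.58 ± 0.29 higher in PP than in α cells (adjusted p = 2.14e-30, edgeR) and 1.89 ± 0.27 higher than in δ cells (adjusted p = 1.33e-09), and both calls were kept in all 5 alternatives run. Of the 9 receptors tested it was the only 1 higher in PP than in α cells, where 0.29% of 18272 genes were, and none was lower, against 1.19%. The PP values were 193, 251 and 424 CPM, from 29, 34 and 54 UMIs in 50, 34 and 17 cells, and 1 cell of control 2 held 11 of its 54. Against β cells 5 receptors were lower in PP cells (Glp1r, Gipr, Gcgr, Ffar1 and Adra2a), where 7.78% of all genes were, and none was higher, against 1.87%. Glp1r had the log2 difference -4.08 ± 0.30 and Adra2a -4.43 ± 0.50, and these 2 calls held in all 5 alternatives. Those of Gipr, Ffar1 and Gcgr held in 4, 3 and 1 of the 5. Chrm3 of PP and β cells differed by -0.27 ± 0.20 (adjusted p = 0.556), and without control 2 by -0.69 (adjusted p = 0.00472). Against δ cells 2 receptors were higher (Chrm3 and Ffar1), where 0.898% of all genes were, and 1, Glp1r, was lower, against 1.86%. The call of Ffar1 was kept in 1 of 5 alternatives.

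The second question was how the receptors compared between the libraries labelled mutant and control 2. Genotype, depth and the batch label, which differs for control 2, cannot be told apart in these 3 libraries, and with 1 control library there was no test. Ratios were taken in β cells as log2 values scaled over the 3 sums of β cells. This is a different scale from that of the levels above, which do not serve for comparing libraries. Counting intervals are exact, at 95%, and cover counting error only. A gene was counted where both mutant libraries differed from control 2 by more than 0.5 in the same direction. Of the 10 receptors 8 reached a mean of 20 CPM. Glp1r and Gipr were counted as higher, where 14.3% of the 4740 genes over that minimum were, and Gcgr and Adra2a as lower, where 32.6% were. The median of all genes was -0.21 and -0.22. Of the genes counted, 69.5% were lower in the mutant libraries, as against 22.7% with CPM of all UMIs, 51.0% with CPM without hormone and mitochondrial genes, 49.5% with cells thinned to 1000 UMIs and 41.4% in β cells of 3000 to 6000 UMIs.

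Both incretin receptors were higher in the mutant libraries. Glp1r had 3380, 3151 and 6071 UMIs in β cells, and its log2 ratio to control 2 was 0.87 (0.81 to 0.93) in mutant 1 and 0.68 (0.61 to 0.74) in mutant 2. Gipr, with 954, 1071 and 960 UMIs, had the ratios 1.71 (1.58 to 1.84) and 1.78 (1.65 to 1.91). The gap between the mutant libraries was 0.20 for Glp1r and 0.07 for Gipr, well under the distance of either from control 2. In β cells of 3000 to 6000 UMIs (816, 612 and 288 cells, with medians of 3988, 4508.5 and 4167 UMIs) depth was similar, but the cells of control 2 were among its shallowest, as its median β cell had 15956 UMIs. In this band the ratios were 1.16 and 0.87 for Glp1r and 1.505 and 1.75 for Gipr. Both were counted as higher in every alternative run.

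The same order was seen as a share of cells. With each β cell thinned to 1000 UMIs (344, 149 and 0 shallower cells left out), 38.7% of cells in mutant 1 (36.6 to 41.0), 34.7% in mutant 2 (32.2 to 37.3) and 16.8% in control 2 (15.2 to 18.5) had a Glp1r UMI. Unthinned, the shares were 66.8%, 73.6% and 83.4%, in the reverse order, as the median β cell had 2747.5, 4475 and 15956 UMIs. In thinned non-endocrine cells the shares were 2.70%, 10% and 1.41%. For Gipr the thinned shares were 12.98% (11.5 to 14.6), 14.3% (12.5 to 16.2) and 3.65% (2.88 to 4.57), the unthinned 31.8%, 44.6% and 34.2%, and the thinned shares of non-endocrine cells 10.8%, 4% and 0 of 71 cells, which allows up to 4.23%.

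**Figure D4:**
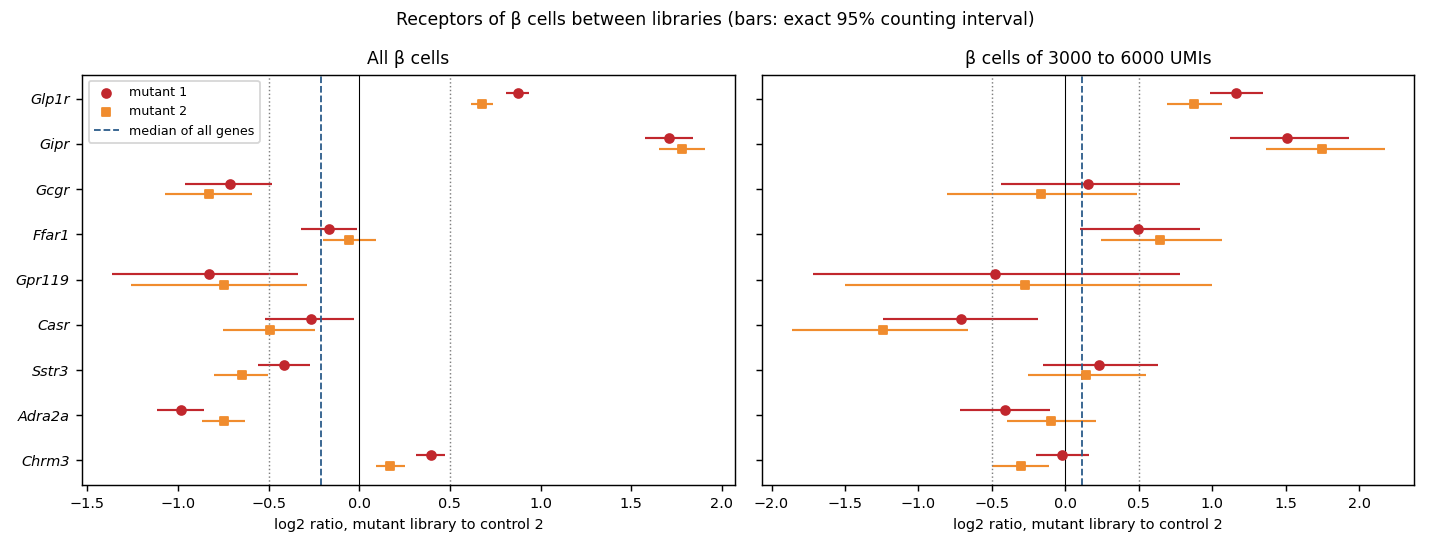
The log2 ratio of mutant 1 (circles) and mutant 2 (squares) to control 2 for 9 receptors in all β cells (left) and in β cells of 3000 to 6000 UMIs (right), with exact 95% intervals for counting error, lines at -0.5, 0 and 0.5 and the median of all genes dashed. Glp1r and Gipr lay above 0.5 in both panels, whereas Gcgr and Adra2a lay below -0.5 only on the left.

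The lower ratios did not hold in every setting. Gcgr, with 172, 170 and 930 UMIs, had the ratios -0.71 (-0.96 to -0.48) and -0.83 (-1.07 to -0.59), but in β cells of 3000 to 6000 UMIs, with 89, 61 and 33 UMIs, they were 0.15 (-0.44 to 0.78) and -0.17 (-0.80 to 0.49). Adra2a, with 550, 693 and 3581 UMIs, had -0.98 (-1.12 to -0.86) and -0.75 (-0.87 to -0.63), and -0.41 and -0.10 in that band. With cells thinned to 1000 UMIs both stayed lower, with -0.59 and -0.91 for Gcgr and -0.79 and -0.57 for Adra2a. With CPM of all UMIs neither was counted as lower, with -0.12 and -0.23 for Gcgr and -0.39 and -0.15 for Adra2a, where the median of all genes was 0.42 and 0.40. With CPM without hormone and mitochondrial genes each missed 0.5 narrowly in 1 mutant library, with -0.495 and -0.56 for Gcgr and -0.76 and -0.48 for Adra2a, where the median was -0.04 and 0.01.

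The other receptors were not counted in either direction in the main setting. Sstr3 had the ratios -0.41 and -0.65, and 0.23 and 0.14 in the band of 3000 to 6000 UMIs. Ffar1 had -0.17 and -0.05, and 0.50 and 0.64 in that band. Chrm3 had 0.39 and 0.17, and -0.02 and -0.30 in that band. These 3 changed sign in at least 1 mutant library between the settings. Chrm3 was counted as higher with CPM of all UMIs, at 0.99 and 0.77, where the median of all genes was 0.42 and 0.40. With cells thinned to 1000 UMIs Chrm3 had 0.48 and 0.38. Casr had -0.27 and -0.49 in all β cells and -0.71 (-1.24 to -0.19) and -1.24 (-1.86 to -0.66) in the band, where it was counted as lower, but 0.32 and 0.10 with CPM of all UMIs. With cells thinned to 1000 UMIs Casr was also counted as lower, with -0.51 (-1.08 to 0.02) and -1.03 (-1.75 to -0.39). Gpr119 was under the minimum level, with 39, 44 and 229 UMIs and the ratios -0.83 and -0.75.

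Markers moved with the library as well. The 6 β markers held 0.392%, 0.373% and 0.163% of the UMIs of β cells and the 7 α markers 0.0704%, 0.0802% and 0.199%, and the median β cell spent 39.5%, 41.8% and 54.9% of its UMIs on insulin. These are shares of all UMIs, without the scaling of the main ratios. With CPM of all UMIs the median log2 ratio of all genes was 0.42 and 0.40. The study reports lower transcripts of several β-cell markers, Mafa among them, in mutant β cells. Here the direction was opposite: the summed share of β markers was higher in both mutant libraries than in control 2. The cause was not tested, and the genotype labels were not checked. The part of these markers and of insulin in the ratios of the receptors was not tested.

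**Figure D5:**
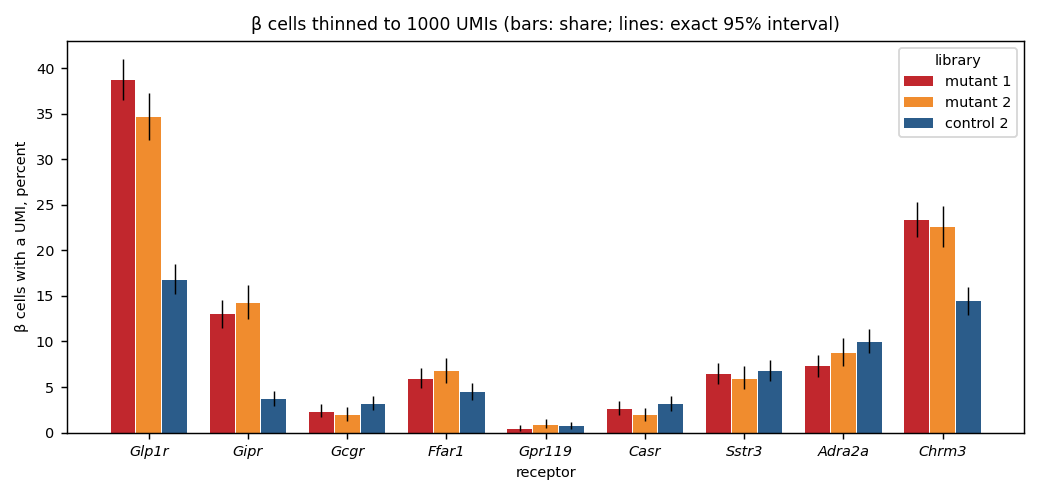
The share of β cells with at least 1 UMI of each receptor after thinning every cell to 1000 UMIs (bars, in percent, with exact 95% intervals) in mutant 1, mutant 2 and control 2. The shares of Glp1r, Gipr, Chrm3 and Ffar1 in control 2 were below those of both mutant libraries, and that of Adra2a was 7.28%, 8.72% and 9.98%.

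In the other classes counts were lower. In α cells Gipr had 55, 37 and 5 UMIs, with log2 ratios of 2.14 (0.93 to 3.92) and 1.27, the latter with an interval from just under 0 to 3.05. Its α level was 49.1%, 25.7% and 43.2% of the β level, and its non-endocrine level 20.3%, 18.5% and 10.03%. The part of free RNA of β cells in the Gipr ratios of α and δ cells was not tested. Glp1r in α cells had the ratios 1.01 (0.05 to 2.20) and 0.81 (-0.15 to 1.98), at levels near those of the reference genes for free RNA. In δ cells Gipr had 10, 25 and 4 UMIs and the ratios 1.31 (-0.30 to 3.62) and 1.97 (0.67 to 4.19). Chrm3 of PP cells was lower in the mutant libraries, by -1.10 (-1.84 to -0.46) and -0.66 (-1.34 to -0.03). This rests on 17 PP cells of control 2, of which 1 held 11 of the 54 UMIs. In β cells Chrm3 had 0.39 and 0.17, but -0.02 (-0.20 to 0.16) and -0.30 (-0.50 to -0.11) in the band of 3000 to 6000 UMIs. No such band was taken for PP cells. Gpr119 of α cells had the ratios -0.69 (-2.01 to 0.60) and -0.45 (-1.62 to 0.78), so that no difference was detectable at this depth.

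Other receptors of islet cells, 47 by a list, and 64 genes of the signaling pathways below the receptors were set beside the 10. Of the 47 receptors 28 were tested. Between β and α cells 6 were higher in each direction, between δ and β cells 3 were higher and 4 lower, and between δ and α cells 4 were higher and 3 lower. Of all genes 10.3% and 6%, 3.54% and 7.84%, and 2.46% and 3.19% were called in these directions. As shares of the 28 the counts were 21.4% in each direction, 10.7% and 14.3%, and 14.3% and 10.7%. The median difference between β and α cells was 0.37, against 2.58 for the 10 and 0.26 for all genes. Prlr, the prolactin receptor, was a β gene like Glp1r, with 407, 395 and 344 CPM against 24.1, 22.5 and 23.4 CPM in α cells (log2 difference 4.05 ± 0.24, adjusted p = 4.88e-60, edgeR). Galr1 for galanin (3.68 ± 0.38), P2ry1 for nucleotides (3.39 ± 0.48) and Ghr for growth hormone (1.32 ± 0.18) were also higher in β cells. Higher in α cells were Ffar4, a second receptor of long-chain fatty acids (-2.87 ± 0.36), Adrb1, the β1-adrenergic receptor (-4.58 ± 0.76), Avpr1b for vasopressin (-4.37 ± 0.75) and Vipr1 for VIP (-1.14 ± 0.32). Ffar1 and Ffar4 thus had opposite orders. Ffar4 stood at 118, 100 and 30.3 CPM in δ cells, 52.3, 59.4 and 9.34 CPM in α cells and 8.97, 7.54 and 1.01 CPM in β cells. Noradrenaline receptors differed likewise. Adrb1 had 11, 16 and 1 UMIs in α cells, 4, 6 and 0 in the many more β cells and 0 in δ cells, whereas Adra2a was in β cells. Crhr2, a receptor of corticotropin-releasing factors, had 3, 1 and 5 UMIs in δ cells and 0 in α cells, and was called higher in δ than in β and α cells (adjusted p = 0.000122 and 0.00933). Adra1a, an α1-adrenergic receptor, was higher in δ than in β cells from 0, 2 and 3 UMIs (3.53 ± 1.18, adjusted p = 0.0282). Gabbr2, a subunit of the GABA-B receptor, was lower in δ than in β cells (-4.21 ± 0.51) and than in α cells (-2.45 ± 0.70), and Igf1r was higher in δ than in α cells (1.05 ± 0.25).

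Below the receptors, 62 of 64 genes were tested. Between β and α cells 11 were higher and 15 lower, between δ and β cells 12 were higher and 6 lower, and between δ and α cells 6 were higher and 8 lower. As shares of the 62 these were 17.7% and 24.2%, 19.4% and 9.68%, and 9.68% and 12.9%, beside the shares of all genes given above. The medians were 0.28, -0.12 and 0.05, close to those of all genes (0.26, -0.41 and -0.09). The inositol trisphosphate receptors, which release calcium for Gq-coupled receptors such as Chrm3 and Ffar1, divided by class: Itpr2 was higher in β than in α cells (3.00 ± 0.39), and Itpr1 was higher in α cells (-3.27 ± 0.18) and in δ cells (3.24 ± 0.19 above β cells). Of the cAMP pathway, Gnas, the stimulatory G protein, was higher in α than in β cells (-1.62 ± 0.16) and in δ than in β cells (1.15 ± 0.16). The adenylyl cyclase Adcy1 and the phosphodiesterase Pde4d were higher in α cells as well (-3.66 ± 0.46 and -1.96 ± 0.16), and Pde10a and Pde4c were higher in β cells (0.87 ± 0.17 and 2.68 ± 0.63). Grk5, a kinase that desensitizes receptors, was higher in β than in α cells (1.40 ± 0.24) and lower in δ than in β cells (-3.30 ± 0.40). Ramp1, a partner of calcitonin-family receptors, and Rgs9, which shortens G protein signals, were higher in δ than in β cells (2.63 ± 0.35 and 1.44 ± 0.21) and than in α cells (3.98 ± 0.55 and 1.60 ± 0.26). Gnai3 and Arrb2 were lower in δ than in β cells (-1.38 ± 0.30 and -3.33 ± 0.72). Pde7b was higher in δ than in α cells (3.08 ± 0.57), and Rapgef4 (Epac2, which binds cAMP) and Gnai1 were lower (-1.04 ± 0.22 and -2.50 ± 0.58).

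In β cells, 8 of the 47 receptors reached 20 CPM. Of these 1 was counted as higher in the mutant libraries (Igf1r, log2 ratios 0.98 and 0.81) and 2 as lower (P2ry1, -1.20 and -1.07, and Ffar2, -2.04 and -1.57), in a background of 14.3% higher and 32.6% lower. Of the 32 signaling genes over that level 5 were higher and 11 lower, shares close to the same background. Grk5 had the ratios 2.12 and 1.91 from 746, 690 and 563 UMIs, and Pde1c 1.68 and 1.28. Lower were Rgs16 (-3.12 and -2.59), Prkacb (-1.96 and -1.77), Rgs4 (-1.85 and -1.59) and Gnas (-1.36 and -1.11). The genes named in this paragraph were chosen after their values were seen. Their ratios are of the main setting only, in which the lower ratios of Gcgr and Adra2a also did not hold in every alternative.

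The genes whose pattern was most like that of each receptor were found by the correlation of log2 CPM over the 15 sums, each centred on its library. These sums share libraries, depth and free RNA, and the values are a description. Iapp, the peptide secreted with insulin, was most like Glp1r (r = 0.976). For Adra2a the nearest were Gng12 (0.941) and Iapp (0.933), and for Ffar1 Srp54a (0.937) and Nkx6-1 (0.934), a transcription factor of β cells. Gipr was nearest to Epb41l3 (0.948), Gcgr to Ttyh2 (0.918), Casr to Eif2ak3 (0.962) and Chrm3 to Tor1aip2 (0.862). Sstr3, found in all endocrine classes, was nearest to Steap2 (0.970) and to Pax6 (0.962), a transcription factor of all endocrine cells of the islet. Gpr119 was nearest to Bend7 (0.916).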

How the data were processed

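Per the labels and the methods of the study, the authors made UMI counts per gene and cell from droplet libraries with DropEst. The submitters' processing notes name GRCm39 and Seurat, and the aligner and annotation are not given in the sources used here. The deposited matrices hold raw counts, in 3 matrices of 8448466, 9013499 and 36985253 UMIs, and 1 labelled library was not analysed. Each matrix was filtered as in the study (at least 500 UMIs and 100 genes and at most 10% mitochondrial UMIs). A cell over more than 1 hormone minimum was left out, and no doublet caller was run.

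Counts were summed per library and class. Classes were compared with edgeR 4.0.16 in R 4.3.3 (TMM, quasi-likelihood test, library as block, 9 sums, genes with at least 10 UMIs over them, adjusted p under 0.05 by Benjamini-Hochberg over all genes). edgeR found no spread between genes beyond its trend, so that the p-values rest on a spread shared by all genes, and with 4 residual degrees of freedom very small ones should be read as an order only. DESeq2 1.42.0 was an alternative. PP cells were added as a further class after the data were seen. Tested on simulated data for β against α cells, the fit recovered 172 of 200 genes changed by 2 on the log2 scale and called 4 of 17979 unchanged ones. The changed genes were drawn from genes of many UMIs, all genes had the same spread and no library effect was simulated. These rates therefore do not cover genes of few UMIs, such as Gpr119, or the library block. Per the methods of the study each library pools islets of male and female mice, and the assays of each genotype were independent. With the library as a block, p-values rest on how far differences between classes varied over these 3 libraries, taken over all genes together. The variation of a single receptor over the libraries does not enter its own p-value. These libraries include both genotypes. Ratios between libraries used a prior count of 1 and genes of at least 20 CPM on average. Thinning drew 1000 UMIs per cell without replacement.

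The receptors and the gene lists were chosen with earlier results of these data known. Named genes were the 10 receptors, the 4 genes of each list with the lowest adjusted p per contrast and direction, and up to 3 genes nearest by pattern to each receptor. Positions are from GENCODE vM21 and promoter letters from RefSeq, by symbol. Alternatives covered scaling, test, filters, hormone minimums, thinning, a depth band and each library left out.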

Additional observations from a re-analysis of the deposited data

Results flagged for a closer look

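For 6 receptors, in 8 comparisons of a receptor between 2 endocrine classes, the order of the classes in both mutant libraries was opposite to that in control 2. All 10 receptors were screened over every pair of β, α, δ and PP cells, by sign alone and with no minimum count. The share of all genes with such an order was not computed, so the count says nothing particular about the receptors. None of these differences between genotypes was tested, as there is 1 control library, and most rest on few UMIs in control 2. Casr of β minus α cells was -7.43 CPM in mutant 1, -4.46 in mutant 2 and 29.3 in control 2, and of δ minus α cells -20.2, -1.32 and 15.9 CPM, where the α cells of control 2 held 2 UMIs. Sstr3 of δ minus α cells was -9.02, -9.50 and 29.4 CPM, from 12, 16 and 16 UMIs in δ cells and 38, 43 and 11 in α cells. Chrm3 of PP minus β cells was -244, -113 and 164 CPM, from 29, 34 and 54 UMIs in PP cells, and 1 cell of control 2 held 11 of the 54. Gipr of PP minus α cells was -64.1, -7.61 and 8.08 CPM and of PP minus δ cells -9.60, -41.2 and 11.2 CPM, with 7, 7 and 4 UMIs in PP cells. Gcgr of PP minus δ cells was -22.5, -7.48 and 8.43 CPM, from 0, 1 and 3 UMIs in PP cells. Ghsr of δ minus β cells was 11.001, 11.2 and -0.113 CPM, from 2, 3 and 0 UMIs in δ cells. The counting intervals of the classes compared overlapped in the mutant libraries for Casr of β and α cells and in each library for Sstr3.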

How the results depend on the processing

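No paired analysis was possible because the labels share replicate numbers 1 and 2 between the groups but control 1 was not analysed here, which leaves 1 shared number. Genes called between β and α cells, δ and β cells, and δ and α cells were 2965, 2074 and 1031. They were 986, 727 and 365 without the library block and 1415, 942 and 349 with cells thinned to 1000 UMIs, where 0 receptors were called between δ and α cells, as against 3. δ against β gave 4646 without a scaling factor and 1352 with the DESeq2 Wald test. With each library left out the counts ran from 1255 to 3404, 1014 to 1879 and 375 to 999, and the receptors called between δ and α cells from 1 to 2. For PP cells against β, α and δ cells (1763, 271 and 504 genes) they ran from 770 to 1296, 70 to 287 and 219 to 425. Without a scaling factor 175 genes were called between PP and α cells, and 3 receptors between PP and β cells, as against 5, and with each library left out 3 to 6. Of β-cell ratios, 679 genes were higher and 1546 lower. CPM of all UMIs gave 1965 and 576, and 0 receptors lower. CPM without hormone and mitochondrial genes gave 1638 higher, and 0 receptors lower. A minimum of 5 CPM gave 1249 and 3324, thinning 1054 higher, and the depth band 1268 and 896, with 1 receptor lower (Casr). The log2 ratio of thinned shares of β cells moved for Glp1r (1.13 at 1000 UMIs, 0.88 at 2000), Gipr (1.90, and 2.28 at 500), Adra2a (-0.32, and -0.027 at 500) and Chrm3 (0.67, with 0.88 at 500 and 0.44 at 2000).

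Signs turned for differences that were not called or were small. Between β and α cells Casr was -0.061 with DESeq2 size factors, -0.62 without a scaling factor, -0.11 with the hormone minimum doubled and from -0.29 (without control 2) to 0.35 with each library left out, and Sstr3 was -0.052 without a scaling factor. Without a scaling factor δ minus β was 0.029 for Gpr119, 0.88 for Casr and 0.50 for Sstr3. Sstr3 of δ minus α cells, -0.01, was 0.076 with DESeq2 size factors, 0.082 in the DESeq2 Wald test, 0.45 without a scaling factor, 0.034 without the block and 0.024 with the minimum doubled, and with each library left out it ran from -0.17 to 0.12. Chrm3 of PP minus β cells was 0.60 without a scaling factor and 0.059 with DESeq2 size factors, and ran from -0.69 to 0.18 with each library left out. Gipr of δ minus α cells, -0.10, was 0.015 with DESeq2 size factors and 0.37 without a scaling factor. Casr of δ minus α cells, -0.22, was 0.26 without a scaling factor. The cause was not tested. Comparisons with an alternative were counted for every tested receptor between β and α and between δ and β cells. Between δ and α cells Gipr, Gcgr, Ffar1 and Casr, none of them called, were left out. With PP cells only the differences called, and those of Casr and Chrm3 from β cells, were counted. Of these comparisons, 262 kept direction and call, 42 lost the call, 9 gained it and 18 changed sign. The 18 do not include sign changes among those left out. The numbers of α, δ and PP cells in control 2 (33, 28 and 17) limit what can be seen there.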
